A study of Mus musculus with 2 samples.

Results

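MYC is a transcription factor that pairs with MAX and binds a short DNA element, the E-box, in front of many genes. Its best known targets are the genes that build ribosomes in the nucleolus. The 38 genes described here are 7 of the MYC network and 31 of ribosome biogenesis, chosen by gene name from a list of symbols. The rule uses no measured value, although the list was drawn up with earlier results of these data known. They carry 75 of the 56605 probes on the array and stand among 37074 gene names. Of the 38 genes, 37 had a probe well above background on at least 1 of the arrays, as did 18837 gene names in all. The exception was Mycn.

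The cells were mDE6, a mouse odontogenic epithelial cell line, which models the epithelium that forms tooth enamel. To find transcripts that respond to β-catenin signalling, the study compared 2 cultures by Agilent microarray, one kept as a control and the other given CHIR99021, an inhibitor of the kinase GSK-3 that lets β-catenin build up and act with LEF/TCF factors in the nucleus. Both were collected at 6 h. The control is labelled as DMSO treated, written as 0/1%, whereas the methods call it untreated. The label of the other array gives 5 mM CHIR99021 and the methods give the same number in μM. No allele or transgene is named for either culture. There was 1 array per condition, so no difference below has a replicate check, no test was possible, and whether the cultures differed for a reason other than the agent cannot be told apart from the treatment.

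The nucleolus assembles around active ribosomal RNA genes. RNA polymerase I transcribes a long precursor, box C/D and box H/ACA ribonucleoproteins modify its bases, and separate sets of factors cut and fold the parts that become the small and the large subunit. MYC with MAX raises transcription of genes of all these steps, while MXD proteins, MXI1 and MNT take MAX for themselves and recruit repressors to the same E-boxes. Myc is also a classical target of β-catenin in intestinal epithelium.

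The E-box CACGTG was looked for in the promoters, because the members were grouped around a factor that binds it. Promoter windows from 250 bases before to 50 bases after the transcription start came from RefSeq (GRCm38.p6) and were found for 31 of the 38 members. The members without a window were Myc, Tcof1, Npm1, Fbl, Rrp12, Bop1 and Rrs1. The motif reads the same on both strands and stood in the windows of 6 of the 31 members, which is 19.4%. Among the 25 ribosome biogenesis members with a window, 4 held it (16.0%), namely Nop2, Pes1, Wdr43 and Utp20. Among the 6 MYC network members with a window, Max and Mnt held it. For comparison, it stood in 1227 of 10863 tested genes (11.3%) and in 2187 of all 27025 genes with a window (8.09%). Stretches of 180 bases, from 150 before to 30 after the start, are printed 5′ to 3′ with the motif in capitals. Nop2 is shown as the member with the highest ratio and Mxd3 as the one with the lowest, and the other 4 because the motif lies inside the stretch.
Nop2: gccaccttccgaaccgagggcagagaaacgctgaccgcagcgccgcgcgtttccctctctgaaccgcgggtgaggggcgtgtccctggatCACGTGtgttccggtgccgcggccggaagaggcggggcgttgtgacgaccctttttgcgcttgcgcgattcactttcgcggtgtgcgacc
Pes1: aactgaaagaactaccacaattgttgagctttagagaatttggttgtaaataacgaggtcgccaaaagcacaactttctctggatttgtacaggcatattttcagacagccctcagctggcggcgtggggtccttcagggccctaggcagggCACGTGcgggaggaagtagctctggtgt
Wdr43: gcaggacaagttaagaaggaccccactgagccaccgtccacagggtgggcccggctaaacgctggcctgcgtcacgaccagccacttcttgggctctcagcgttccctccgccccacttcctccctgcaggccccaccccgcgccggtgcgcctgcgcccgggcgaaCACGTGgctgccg
Max: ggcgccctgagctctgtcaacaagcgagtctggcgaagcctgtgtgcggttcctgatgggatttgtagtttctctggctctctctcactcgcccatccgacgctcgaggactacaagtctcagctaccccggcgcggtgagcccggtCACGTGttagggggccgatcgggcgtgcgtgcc
Mnt: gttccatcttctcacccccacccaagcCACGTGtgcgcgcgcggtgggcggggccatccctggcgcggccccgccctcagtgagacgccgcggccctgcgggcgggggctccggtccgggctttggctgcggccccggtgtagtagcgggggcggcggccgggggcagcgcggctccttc
Mxd3: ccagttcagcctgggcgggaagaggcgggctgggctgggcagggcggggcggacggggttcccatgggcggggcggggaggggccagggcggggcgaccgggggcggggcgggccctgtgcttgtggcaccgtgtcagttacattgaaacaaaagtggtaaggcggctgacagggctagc

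The stretches lie at chr6:125131733-125131912 on the plus strand for Nop2, chr11:3963825-3964004 on the plus strand for Pes1, chr17:71616065-71616244 on the plus strand for Wdr43, chr12:76962219-76962398 on the minus strand for Max, chr11:74830774-74830953 on the plus strand for Mnt and chr13:55329702-55329881 on the minus strand for Mxd3, all in GRCm38.p6. Counted from the start site as base 1, the first base of the motif was at -60 in Nop2, 3 in Pes1, 18 in Wdr43, -3 in Max and -123 in Mnt. In Utp20 it was at 38, past the stretch shown for the others. The Mxd3 window held no CACGTG, which says only that these letters are not in it. A match is a string of letters and no measured binding.

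All signals below are background-subtracted brightness as deposited, per probe, on the control array first. All ratios are CHIR99021 over control after each array was divided by its own 75th percentile, which was 486.7 on the control array and 469.2 on the other. Where a gene had several probes, the one with the highest mean signal stood for it. The Z-score of a ratio is its distance, in SDs, from the mean log2 ratio of the 500 probes most similar in mean signal. The software called 49.8% of the 59305 spots well above background for the control and 48.3% for CHIR99021, with no spot saturated. The scanner software's own error of a log2 ratio was 0.20 to 0.34 for the member probes used, with a median of 0.20. By comparison, 278 probes printed repeatedly had a median SD of 0.03 between spots. Both errors cover measurement on the slides and leave out the spread between cultures.

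The labels and the markers only partly matched. Of 13 epithelial and enamel genes, 7 were not well above background on either array, among them Cdh1, Epcam, Krt8, Krt19 and the enamel genes Amelx, Ambn and Enam. Trp63, an epithelial stem cell factor, read 2306 and 2896. All 11 mesenchymal markers were well above background on both arrays, with ratios from 0.659 (Pax9) and 0.684 (Pdgfrb) to 1.54 (Msx1) and 1.55 (Twist1). Of the 11, 8 were below 1, and 3 were above it (27.3%, against 53.4% of all tested genes). The brightest, Col1a2, read 270783 and 242601. The level of those 11 summed after scaling, most of it from the collagen genes, was 985 in the control and 927 with CHIR99021. All 4 leukocyte markers were above background too (summed level 18.1 and 16.7, most of it from Itgam). Itgam (0.86) and Cd3e (0.88) had ratios below 1, and Ptprc (1.07) and Cd68 (1.24) above it. Of 4 endothelial markers, Cdh5, Kdr and Tek were above background on neither array and Pecam1 in the control only, at 29.9. The part of other cells in the member ratios was not tested. In such bulk RNA, fewer cells of a type and less RNA per cell cannot be told apart.

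Of 11 genes that report β-catenin activity, 7 were well above background on both arrays, and the ratio of each was above 1, against 53.4% of all tested genes. Of these 7, Lef1 and Rnf43 also had a Z-score of at least 2.0. Lef1, a nuclear partner of β-catenin, went from 239 to 690.5 (ratio 2.997), and Rnf43, a ligase that removes Wnt receptors, from 69.3 to 167 (2.49). Nkd1 and Axin2, feedback inhibitors, were above background on the CHIR99021 array only, so that their direction was set by the filter, and were at least 25.8-fold and at least 1.66-fold higher. The ratio was 1.59 for Znrf3, 1.55 for Tcf7, 1.39 for Lgr5, 1.30 for Notum and 1.18 for Ccnd1. Sp5 and Dkk1 were not well above background.

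Across the members, 31 of 37 ratios were above 1, against 53.4% of all 18837 tested genes. The median log2 ratio of the members was 0.50, a ratio of 1.41, and that of all tested genes was 0.02. A ratio of at least 1.5 was reached by 12 members (32.4%), against a background of 8.05%. That background was 4.81% with normexp (10 members), 5.22% in the earlier rows of the slide, up to row 192 of 384 (10 of 28 members), and 3.29% among genes at or above the 75th percentile on both arrays (11 of 34 members), a filter chosen after seeing the data. With a Z-score of at least 2.0 as well, 8 members were left (21.6%), against 2.63%. At the other end, 2 members had a ratio of at most 0.66, against 9.67% of all genes, and neither had a Z-score of -2.0 or less, against 3.22%.

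The higher ratios lay among the ribosome biogenesis genes. Of the 31 ribosome biogenesis members, 30 were above 1, 12 reached 1.5 and none was at or below 0.66. Their log2 ratios ran from -0.07 to 0.82, a narrow band about a median of 0.50. In the MYC network, 1 of 6 measured members was above 1 and the median log2 ratio was -0.29. The difference between both sets has no test, since the genes were measured on the same 2 arrays and are not replicates.

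**Figure D1:**
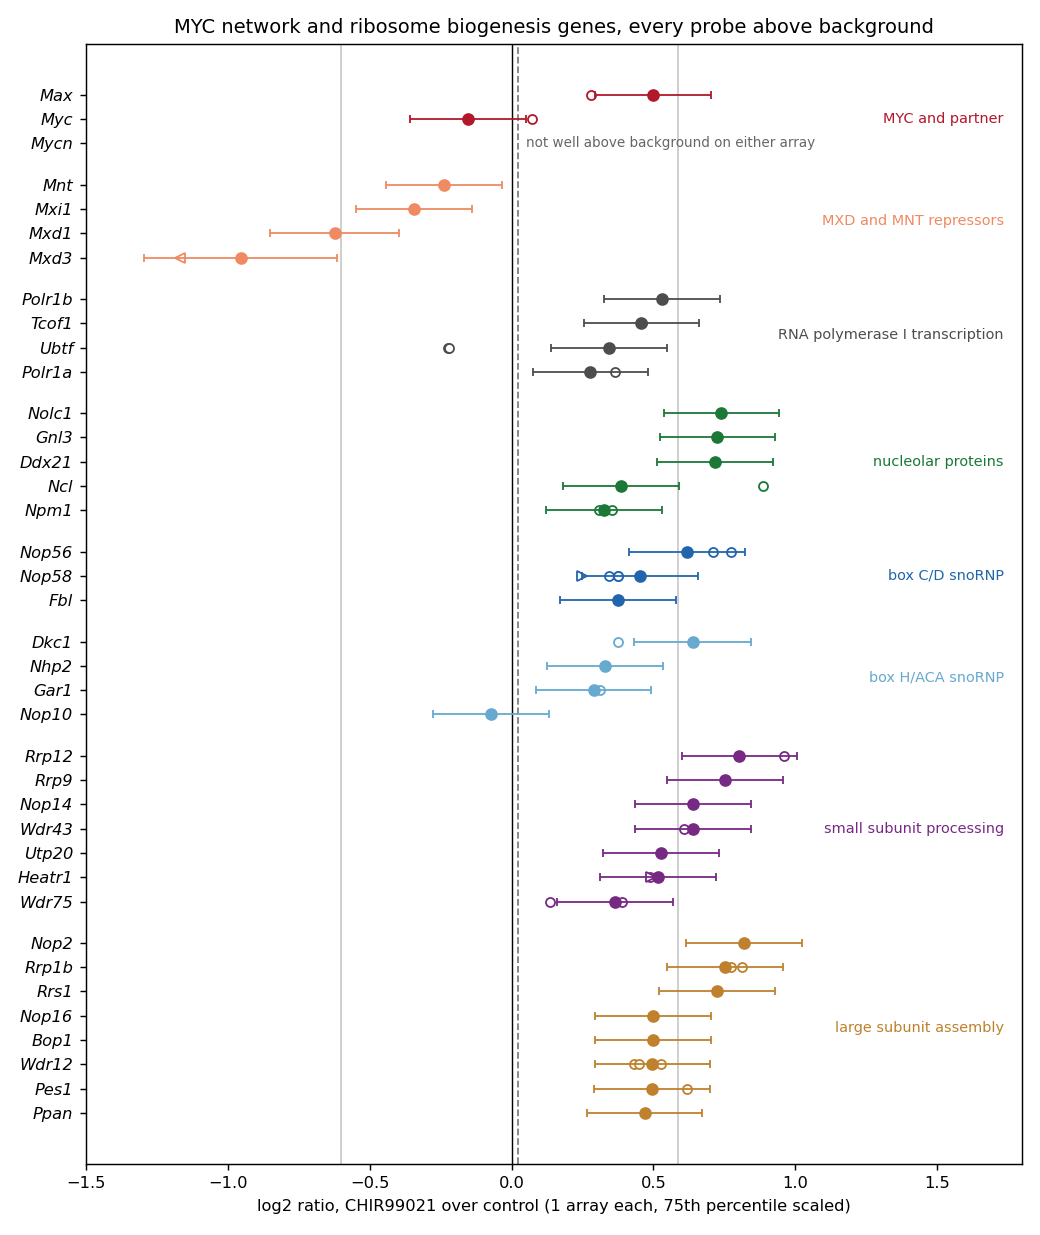
Log2 ratio of CHIR99021 over control for each member, 1 array per condition. Filled circles are the probe with the highest mean signal, open circles the other probes above background on both arrays, triangles bounds for probes above background on 1 array, and bars the scanner software's error of the filled circle. Grey lines mark ratios of 0.66 and 1.5 and the dashed line the median of all tested genes. Filled circles of 30 of the 31 ribosome biogenesis genes lie right of 0, and those of the MXD and MNT genes lie left of it.

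Myc itself was not higher at its main probe. Its main probe, at chr15:61821417-61821476 (mm9, the build of the files), read 2418 in the control and 2097 with CHIR99021. That is a ratio of 0.90 (log2 -0.15, software error 0.20, Z -0.69). The second Myc probe, chr15:61820925-61820984, read 253 and 256, a ratio of 1.05. The probes thus stood on either side of 1, each by less than the software error. Mycn, the paralogue of embryonic tissues, read 5.67 and 6.33, not well above background on either array.

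Max, the obligate partner, was the MYC network member with a higher signal. It went from 3137 to 4268, a ratio of 1.41 (log2 0.50, Z 1.38), and its second probe from 190 to 223, a ratio of 1.21. Both probes were higher, the main one by more than 2 software errors.

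The 4 antagonists were all lower, beside 8775 of all 18837 tested genes with a ratio below 1. Mnt, the most widely expressed of them, went from 4407 to 3604, a ratio of 0.85 (log2 -0.24). Mxi1 went from 2484 to 1888, a ratio of 0.79 (log2 -0.34). Mxd1, which is switched on as cells differentiate, went from 164 to 103, a ratio of 0.65 (log2 -0.62). Mxd3, known from cells in S phase, had the lowest ratio of all members, with 63.0 and 31.3, a ratio of 0.52 (log2 -0.95, software error 0.34). Mxd3 was also the dimmest member probe used (chr13:55427000-55427059, mm9). The 500 probes most similar in signal had an SD of 1.502 on the log2 scale, against 0.30 around Myc, and the Z-score of Mxd3 was -0.60. A second Mxd3 probe read 61.2 on the control array and was not well above background on the other. Its direction was thus set by the filter, and it was at least 2.25-fold lower. The Z-scores of Mnt, Mxi1 and Mxd1 lay between -1.14 and -0.97, so that none of the 4 met the criteria for lower genes as applied here, a ratio of at most 0.66 with a Z-score of at most -2.0. With the limit as the methods print it, a Z-score of at most 2.0, Mxd1 and Mxd3 would meet them. Main probes of Mnt, Mxi1 and Mxd3 lie past the middle row of the slide and that of Mxd1 before it. With normexp background correction 0 members had a ratio of at most 0.66, in place of Mxd1 and Mxd3, while all 4 antagonists still had ratios below 1. Second probes of Mxd1 and Mxi1 were not well above background on either array.

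The remaining genes of the extended network did not share that direction, apart from Mxd4. Mxd4, a further MXD protein and not a member, went from 968 to 158, a ratio of 0.169 (log2 -2.57, Z -6.64). Its second probe went from 364 to 110, a ratio of 0.315 (Z -3.79). Both Mxd4 probes were lower. Their spots sit at rows 283 and 341 of 384, past the middle row 192, and such spots are called later rows here. The position's part in the ratio was not tested. Mlx, the partner of the MXD proteins in the parallel MLX network, had a ratio of 1.44, Mga 1.26, Mlxip 1.22 and Mlxipl 1.04. Mycl was not well above background.

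Transcription of ribosomal RNA depends on RNA polymerase I. All 4 members of this step were higher, with a median log2 ratio of 0.40, and none reached 1.5. Polr1b, the second largest subunit, went from 821 to 1142, a ratio of 1.44. Polr1a, the largest subunit, went from 5278 to 6170, a ratio of 1.21, and its second measured probe gave 1.29. Tcof1, the scaffold protein treacle, gave 1.37 and 1.38 on its probes (6441 to 8528 and 4502 to 5974). Ubtf, the factor that opens ribosomal DNA for the polymerase, was the gene whose probes disagreed. Its brightest probe went from 27490 to 33599, a ratio of 1.27, whereas the dimmer ones went from 1325 to 1093 and from 552 to 457, both 0.86. The direction of Ubtf therefore depended on the probe.

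The nucleolar proteins had the highest median of the role groups, 0.72 on the log2 scale, and all 5 were higher. Nolc1, which escorts small nucleolar ribonucleoproteins, went from 7257 to 11680, a ratio of 1.67 (Z 2.36). Gnl3, the GTP-binding protein nucleostemin, went from 1592 to 2538, a ratio of 1.65 (Z 1.90). Ddx21, an RNA helicase of the polymerase I and processing machinery, went from 2483 to 3937, a ratio of 1.65 (Z 2.15). All 3 passed 1.5. Ncl, nucleolin, went from 32432 to 40837, a ratio of 1.31, and a dimmer Ncl probe from 253 to 451, a ratio of 1.85 (Z 2.16). Npm1, nucleophosmin, went from 47980 to 57947, a ratio of 1.25, on a probe printed on 10 spots. The log2 ratio of these 10 spots was 0.33 ± 0.02 (SD, n = 10 spots of the same arrays), from 0.30 to 0.38, and the other Npm1 probes gave 1.28 and 1.24. Small as it was, the Npm1 difference exceeded the spread between spots on all 10. Npm1 has many processed pseudogenes, and whether they share sequence with its probes was not tested.

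The box C/D proteins, which methylate the ribose of ribosomal RNA, were higher in all 3 cases. Nop56, a core protein, went from 24630 to 36413, a ratio of 1.53 (Z 2.33), and its other probes gave 1.64 and 1.71, each with a Z-score above 2.0. Nop58, which sits opposite Nop56, went from 8947 to 11809, a ratio of 1.37, with 1.27 to 1.30 on 3 further probes. Fbl, the methyltransferase fibrillarin, went from 25864 to 32345, a ratio of 1.30. All 3 Nop56 probes thus had higher ratios than all 4 Nop58 probes measured on both arrays. Probes of a gene on the same arrays are not replicates. At the main probes, the log2 ratios of 0.62 and 0.45 differed by less than the software error of 0.20. A further dim Nop58 probe was above background with CHIR99021 only, so that its direction was set by the filter, and was at least 1.19-fold higher (Z 0.39).

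The box H/ACA proteins, which convert uridine to pseudouridine, were less uniform. Dkc1, the pseudouridine synthase dyskerin, went from 412 to 618, a ratio of 1.56, and on a second probe from 321 to 402, a ratio of 1.30. Nhp2 went from 18177 to 22018, a ratio of 1.26, and Gar1 from 15380 to 18112, a ratio of 1.22. Nop10, the smallest core protein, was the ribosome biogenesis member that was not higher. It went from 3100 to 2844, a ratio of 0.95 (log2 -0.07), within the software error. The 4 proteins form a common core particle, and their ratios ran from 0.95 to 1.56.

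All 7 factors of small subunit processing were higher, with a median log2 ratio of 0.64, and 4 reached 1.5. Rrp12, needed for maturation and export of subunits, went from 4144 to 6970, a ratio of 1.74 (Z 2.38). On its second probe it went from 233 to 437, a ratio of 1.95 (Z 2.51), the highest of any member probe above background on both arrays. Rrp9, a protein of the box C/D particle that guides the first cuts of the precursor, went from 1359 to 2208, a ratio of 1.69 (Z 2.25). Nop14 (1337 to 2009) and Wdr43 (4243 to 6367) both gave 1.56, and a second Wdr43 probe gave 1.52. Utp20, a large scaffold protein, gave 1.44 (1452 to 2015) and Heatr1, which links the processome to polymerase I, gave 1.43 (6886 to 9488). A second Heatr1 probe gave 1.40. A dim Heatr1 probe was above background with CHIR99021 only, so that its direction was set by the filter, and was at least 1.40-fold higher (Z 0.45). Wdr75, a partner of Wdr43 and Heatr1 in the complex that joins the precursor early, was the lowest of the group with 1.29 (5677 to 7051), and its dimmest probe gave 1.099.

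All 8 factors of large subunit assembly were higher, with a median log2 ratio of 0.50, and 3 reached 1.5 with a Z-score of at least 2.0. Nop2, a methyltransferase of ribosomal RNA long known as a proliferation antigen, went from 10259 to 17442 at chr6:125094661-125094720 (mm9). Its ratio of 1.76 (log2 0.82, software error 0.20, Z 2.71) was the highest of all members at the probe used. Rrp1b went from 1159 to 1882, a ratio of 1.68 (Z 2.11), with 1.71 and 1.75 on further probes. Rrs1, which brings a small ribosomal RNA into the assembling subunit, went from 1889 to 3008, a ratio of 1.65 (Z 2.36).

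The remaining large subunit factors lay close together. Pes1, Bop1 and Wdr12, the subunits of the PeBoW complex, all had ratios of 1.41 (8578 to 11647, 4717 to 6420 and 5126 to 6971). A dim second Pes1 probe gave 1.53, and 3 further Wdr12 probes gave 1.35 to 1.44. Nop16 gave 1.41 (1830 to 2494) and Ppan 1.38 (6267 to 8360). The 3 PeBoW subunits and Nop16 differed from each other by far less than the software error of 0.20.

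Probes of the same gene mostly moved together. Of 18 members with several probes above background on both arrays, 16 had all of them higher, none had all lower, and Myc and Ubtf were mixed. The median range between probes of a gene was 0.12 on the log2 scale. Of the 56 ribosome biogenesis probes above background on both arrays, 53 were higher, the exceptions being a pair of Ubtf probes and Nop10. Of the 31 ribosome biogenesis genes, 30 were higher by more than 1 software error and 22 of them by more than 2. All 30 also lay above the mean of the 500 probes most similar in signal, which ranged from 0.00 to 0.11 around these genes. By position on the slide, the 10 ribosome biogenesis genes whose probe lay in the later rows had a median log2 ratio of 0.50 and the 21 in the earlier rows 0.52.

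**Figure D2:**
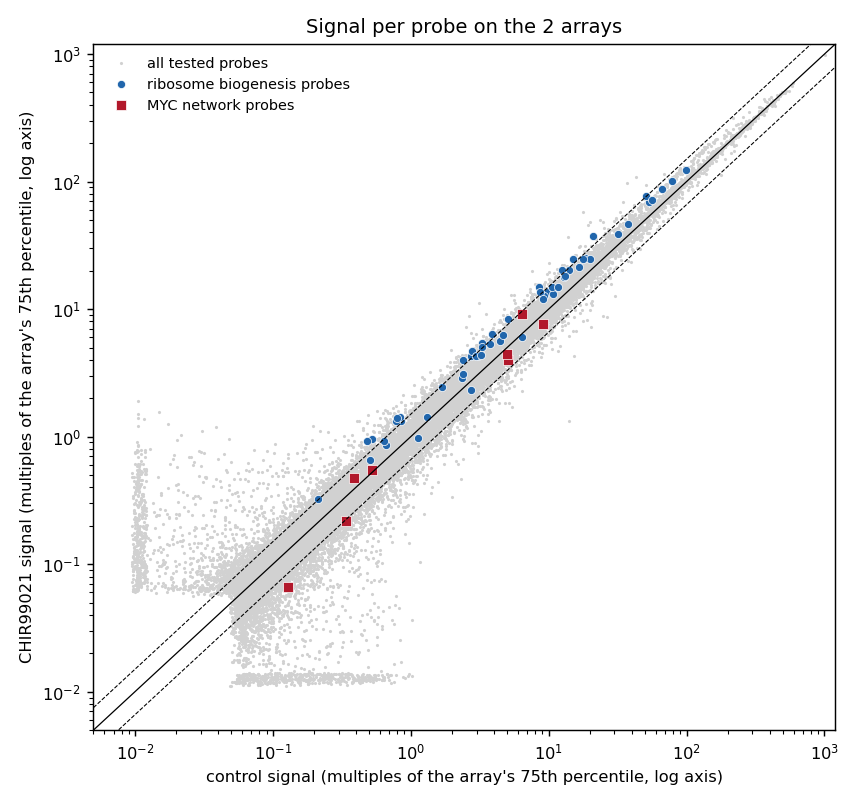
Signal on the CHIR99021 array against signal on the control array, both in multiples of the array's 75th percentile on log axes. Grey points are all 28066 tested probes, blue circles ribosome biogenesis probes and red squares MYC network probes above background on both arrays. The solid line is a ratio of 1 and the dashed lines ratios of 1.5 and 0.66. The ribosome biogenesis probes form a band above the solid line over the whole range of signal, and 3 of the 56 lie below it.

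Genes of the same pathway outside the 38 were read from lists of further polymerase I, small subunit and large subunit factors. Of 94 measured, 90 were above 1 (95.7%), with a median log2 ratio of 0.41, and 19 reached 1.5. With the Z-score, 5 were left, and none was at or below 0.66. The share above 1 was 96.8% among the ribosome biogenesis members and 95.7% here. The share at 1.5 or more was 38.7% among those members and 20.2% here, against 8.05% of all tested genes. With the Z-score it was 25.8% and 5.32%, against 2.63%.

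In the polymerase I list, 11 of 12 were above 1. The highest were Taf1d, a subunit of the promoter selectivity factor (809 to 1430, ratio 1.83, Z 2.55), Cd3eap (1.55) and Polr1e (1.477), both polymerase I subunits. The lowest were Taf1b (0.957), Ttf1 (1.00) and Znrd1 (1.02). Core subunits and selectivity factors were found at both ends of this list.

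In the small subunit list, 41 of 42 were above 1, with a median log2 ratio of 0.40. The highest were Utp15 (97.6 to 178, ratio 1.90), Nol10 (37.6 to 61.4, ratio 1.69) and Shq1, an assembly factor of box H/ACA particles (146 to 236, ratio 1.68), all dim probes with Z-scores under 2.0. Ddx52 (0.959), Ddx10 (1.04) and Utp11l (1.05) were the lowest.

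In the large subunit list, 38 of 40 were above 1, with a median log2 ratio of 0.45, and 10 reached 1.5. Lyar, a nucleolar zinc finger protein, was the highest (4883 to 9184, ratio 1.95, Z 2.90), followed by Urb1 (346 to 641, ratio 1.92, Z 2.39) and Sdad1 (4538 to 7191, ratio 1.64, Z 2.07). Rpf1 went from 681 to 528, a ratio of 0.805, and Nsa2 (0.970) and Las1l (1.06) were the next lowest. No gene of the 3 lists had a ratio as low as that of Mxd4.

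**Figure D3:**
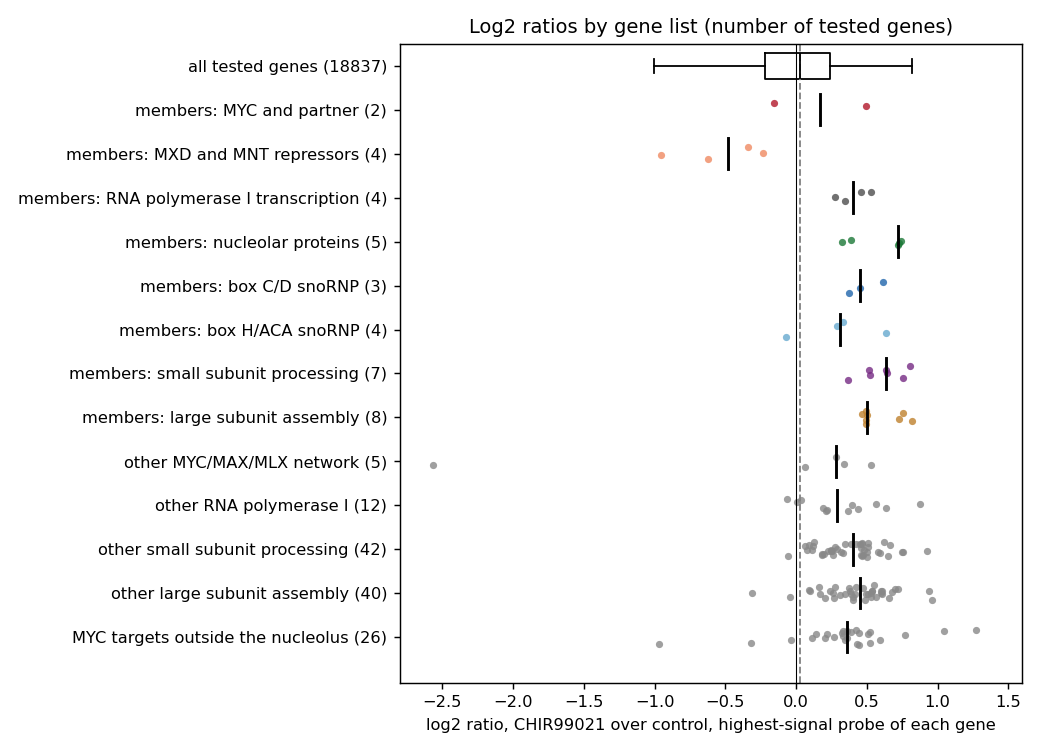
Log2 ratios of CHIR99021 over control by gene list, with the number of tested genes in parentheses. Each point is a gene at its highest-signal probe and black bars are list medians. The box of all tested genes spans the quartiles with whiskers from the 5th to the 95th percentile, and the dashed line is their median. Ribosome biogenesis lists have medians between 0.29 and 0.72, the MXD and MNT genes -0.48, and Mxd4 stands far left at -2.57.

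Ratios were also set beside the presence of the E-box, with no test. The 4 with CACGTG in the window, Nop2, Pes1, Wdr43 and Utp20, had log2 ratios of 0.82, 0.49, 0.64 and 0.53, and a median of 0.58. The 21 without it had a median of 0.50. Over all tested genes the medians were 0.09 with the motif (1227 genes) and 0.01 without (9636 genes). Among the network genes, Max and Mnt both held the motif and had ratios on either side of 1.

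The criteria divided the members along a continuous range. Just inside the ratio of 1.5 stood Nop56 at 1.53, and just outside stood Polr1b at 1.44 and Utp20 at 1.44. Just inside the Z-score of 2.0 stood Rrp1b at 2.11, and just outside, among those that reached 1.5, stood Nop14 at 1.91. The 8 members that met both criteria were Nop2, Rrp12, Rrp9, Rrp1b, Rrs1, Nolc1, Ddx21 and Nop56. They come from large subunit assembly, small subunit processing, the nucleolar proteins and the box C/D particle.

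**Figure D4:**
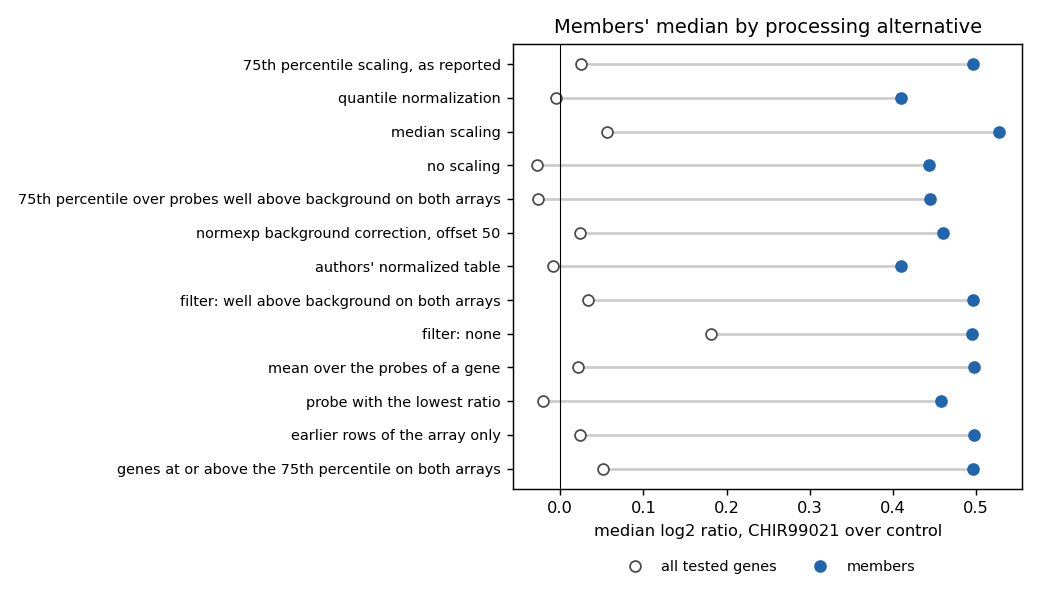
Median log2 ratio of the members (filled circles) and of all tested genes (open circles) under each processing alternative, joined by grey lines. The members' median ranges from 0.41 to 0.53 and lies right of the open circle in every row drawn.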

How the data were processed

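RNA from 1 control culture and 1 CHIR99021 culture was labelled with Cy3 and hybridised to Agilent mouse arrays (the methods name a human array). The authors extracted the spots with Feature Extraction, version 10.7.1.1 per the file headers and 9.5.1.1 per the submitters' notes, and deposited background-subtracted intensity values, not normalized between arrays, with coordinates in mm9. A table of intensity values that the authors normalized between arrays was used as an alternative. From the deposited intensity, control spots and outlier flags were left out (101 spots, none of a member), spots of a probe were averaged, and each array was divided by its 75th percentile in pandas 2.3.3 (Python 3.11.15, numpy 2.4.6). Genes that neither array showed well above background were left out. Bounds written as "at least" set the dim array at its lowest signal well above background or the probe's own value if higher. The methods' criteria, which set 0.66 for the ratio beside 2.0 for the Z-score, were applied in both directions with 1.5 for higher genes. The methods print the limit for lower genes as a Z-score of at most 2.0, and it was taken here as at most -2.0. They do not say how the Z-score was computed. The calculation was tested on simulated data. Alternatives changed the scaling, background correction (limma 3.58.1, R 4.3.3, normexp with offset 50), filter, probe and rows. With 1 array per condition no test was run, and the number of arrays limits the precision.

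Of the 75 member probes, 64 were well above background on both arrays, 3 on 1 array and 8 on neither. The accessions of 64 probes were in the RefSeq gene table (GRCm38.p6), none under another symbol, and the array's names were kept. Of the probes, 14 span a splice junction. Exon and UTR positions were not analysed here. All members are named, with the 3 highest and 3 lowest genes of each other list and every gene of the Wnt list. The members and lists were chosen with earlier results of these data known. Figures were drawn with matplotlib 3.10.9.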

Additional observations from a re-analysis of the deposited data

How the results depend on the processing

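No paired analysis was possible because there was 1 array on each side. The median log2 ratio of the members, 0.50, was 0.41 with quantile normalization, 0.53 with median scaling, 0.44 without scaling, 0.45 with the percentile over probes above background on both arrays, 0.46 with normexp, 0.41 in the authors' normalized table and 0.46 at each gene's lowest probe. That of the ribosome biogenesis members, 0.50, was 0.43, 0.53, 0.45, 0.45 and 0.43 under quantile normalization, median scaling, no scaling, the percentile over detected probes and the authors' table. The log2 ratio of Myc, -0.15, was -0.20, -0.12, -0.21, -0.20 and -0.20 in the same order and -0.041 as the mean over its probes. Ribosome biogenesis members above 1 numbered 30 of 31 under every scaling, and 29 with the mean over probes or the lowest probe, where Ubtf turned to -0.03 or -0.22. They numbered 23 of 24 in the earlier rows of the array. Members at 1.5 or more numbered 8 with the Z-score and 10 to 12 otherwise. The 2 members at or below 0.66 became 1 with median scaling and 0 with normexp, with the Z-score, or with genes at or above the 75th percentile on both arrays, a filter chosen after seeing the data. The MXD and MNT genes below 1, 4 of 4, became 2 of 2 under that filter and 2 of 2 in the earlier rows, with fewer genes measured. Other ribosome biogenesis genes above 1, 90 of 94, became 58 of 60 in the earlier rows. The median of all tested genes ran from -0.03 to 0.06 over the scalings and was 0.18 with no filter. For changes in level, the cause was not tested. Dim probes such as Mxd3 and Mxd1 are limited by signal over background.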

Other observations

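Known MYC targets outside the nucleolus were mostly higher as well. Of 26 measured, 23 had a ratio above 1 (88.5%, against 53.4% of all tested genes). A ratio of 1.5 was reached by 4 (15.4%, against 8.05%), and 1 was at or below 0.66, against 9.67% of all tested genes. The median log2 ratio was 0.36. Hk2, the hexokinase that starts glycolysis, went from 956 to 2224, a ratio of 2.42 (Z 3.63). Tfrc, the transferrin receptor for iron uptake, went from 787 to 1569, a ratio of 2.07 (Z 2.99). Srm, which makes spermidine, went from 12297 to 20170, a ratio of 1.70 (Z 2.48). The lowest were Tfap4, a transcription factor induced by MYC, from 153 to 75.4 (ratio 0.512, Z -1.47), the DNA repair gene Apex1 (0.801) and Odc1, ornithine decarboxylase (0.978). Odc1 and Srm, neighbouring steps of polyamine synthesis, thus stood at opposite ends of the list, although Odc1 was close to 1. Of the 2 Odc1 probes measured, 1 was higher.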
